A study of Mus musculus with 3 samples.

Results

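The renin-angiotensin system was described here through 9 genes: Agt, Ren1, Ace, Agtr1a, Agtr2, Agtrap, Atp6ap2, Lnpep and Mas1. They were listed by name, and a probe set (a group of short probes that reports 1 signal) was taken for a gene when the platform annotation gave it that symbol and no other. This gave 11 probe sets for 7 of the 9 genes, among 18194 genes measured in the same way. Ren1, the renin gene, and Lnpep, the gene of an aminopeptidase that binds angiotensin IV, were not analysed here. For each gene the probe set whose log2(signal + 1) had the highest mean over the arrays was used, and the other probe sets are given beside it.

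The samples were ureters from embryos of the mouse strain FVB/N, wild-type, of unknown sex and at embryonic day 15 (Theiler stage 23), dissected from the renal pelvis to the entry into the bladder. They form 1 untreated group of 3, replicates 3, 8 and 9, each read on its own Affymetrix Mouse Genome 430 2.0 array with 1 colour. The RNA was amplified in 2 rounds. The samples were not pooled, and the labels do not name the embryo or litter of each, so their spread may be technical. With no second group, levels are described and no difference between conditions was tested.

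In this system the protease renin cuts angiotensinogen to angiotensin I, and angiotensin converting enzyme trims that to angiotensin II. Angiotensin II acts through the type 1 receptor, which contracts smooth muscle, and the type 2 receptor, which is abundant in fetal mesenchyme and often opposes type 1 signalling. Mice that lack angiotensinogen or the type 1 receptors form a poor renal pelvis and ureteral muscle, and loss of the type 2 receptor has been linked to malformations of the urinary tract.

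The angiotensin II receptor genes Agtr1a and Agtr2 and the prorenin receptor gene Atp6ap2 were above background in the ureter. Background was the 95th percentile, on each array, of 53 reference genes known from retina, testis, pituitary and other organs that were not dissected. In replicates 3, 8 and 9 it equalled signals of 611, 512 and 792. Agtr1a, Agtr2 and Atp6ap2 exceeded it on every array, which makes 3 of 7 measured members, against 47.3% of all named genes. The share of the members was thus close to that of the array as a whole. Agt and Agtrap exceeded background on 1 array each, and Ace and Mas1 on none, as was the case for 42.3% of all named genes. By probe set, 5 of 11 were above background on all arrays, against 35.6% of all probe sets with 1 symbol. Probe sets differ in brightness for reasons other than transcript amount, so the brightness ranks given below describe probe sets and do not order genes by transcript.

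**Figure D1:**
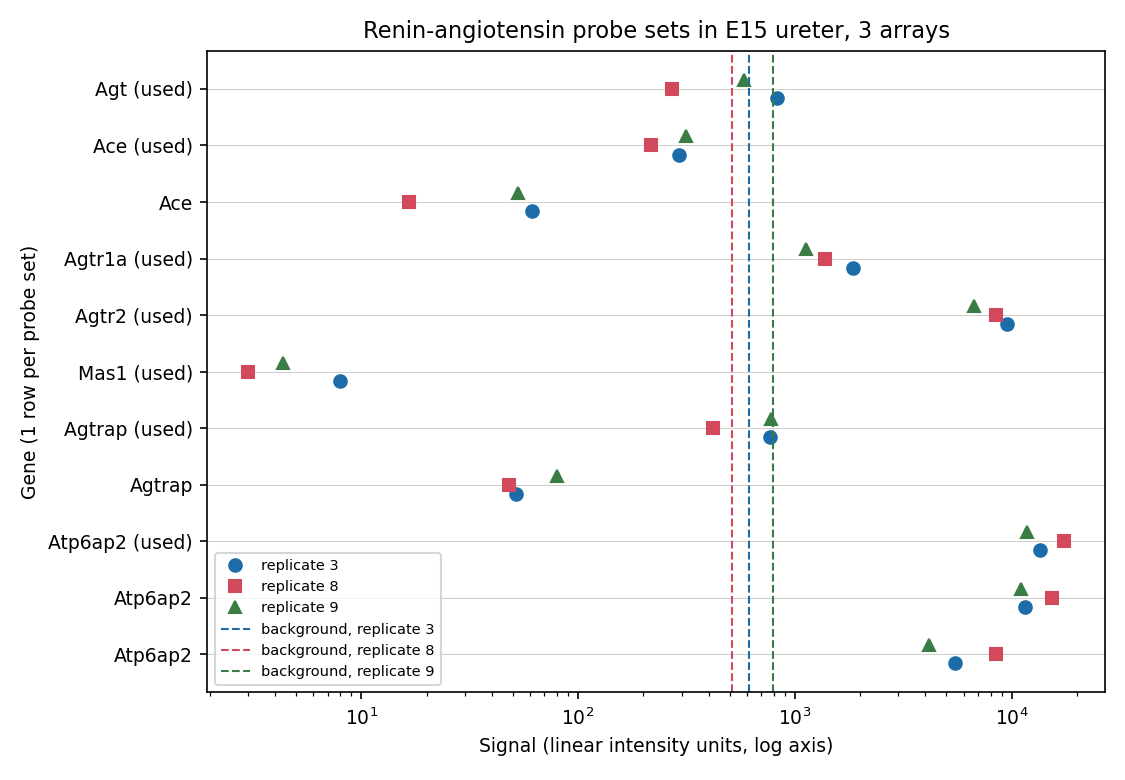
Signal of every probe set of the 7 measured members on the 3 arrays (linear intensity units on a log axis), 1 row per probe set and 1 marker per replicate, with "used" beside the probe set that stands for the gene and dashed lines at the background of each array. The Agtr1a, Agtr2 and Atp6ap2 points lie to the right of their lines. The points of Agt and of the brighter Agtrap probe set straddle them. The points of the dimmer Agtrap probe set lie to the left, and the Mas1 points lie between 3.01 and 7.96.

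Agtr2, the gene of the type 2 receptor, had signals of 9533, 8462 and 6671 in replicates 3, 8 and 9. The mean was 8222 ± 1446 (SD, n = 3; every ± below is an SD over the same 3 arrays), brighter than 88.9% of named genes. Replicate 3 was the highest and replicate 9 the lowest, 1.43-fold apart. That range, 0.52 on the log2 scale, was close to the median range of all genes above background (also 0.52). Agtr2 thus varied between the arrays about as much as a typical detected gene. In whole tissue, fewer cells of a type and less RNA per cell cannot be told apart.

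Agtr1a, the gene of the main type 1 receptor of rodents, had signals of 1861, 1378 and 1127 in replicates 3, 8 and 9. Its mean of 1455 ± 373 was brighter than 60.6% of named genes, and its log2 range of 0.72 was wider than that of 71.2% of genes above background. The array order was that of Agtr2, highest in replicate 3 and lowest in replicate 9, an order held by 18.4% of genes above background. Agtr1b, the gene of the closely related second type 1 receptor, had signals of 67.2, 9.92 and 237, below background on each array. The paralogs are near-identical in sequence, and cross-hybridisation between them was not tested. Agtr1a was the called member nearest to background, and when background was raised to the 99th percentile of the reference genes, between 1315 and 2460, it stood above it in replicate 8 alone.

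Mas1, the gene of the receptor for angiotensin 1-7, gave signals of 7.96, 3.01 and 4.36. These were among the dimmest on the arrays, with a mean brighter than 0.797% of named genes, and differences at that level carry no order.

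Atp6ap2 encodes the prorenin receptor, a membrane protein that binds renin and its precursor and is also an accessory part of the V-ATPase, the proton pump that acidifies lysosomes and other vesicles. Its brightest probe set had signals of 13481, 17415 and 11818 in replicates 3, 8 and 9, a mean of 14238 ± 2875 that was brighter than 94.2% of named genes. The remaining pair of probe sets had means of 12684 ± 2366 and 6037 ± 2207. All 3 probe sets were above background on every array, and each was highest in replicate 8 and lowest in replicate 9. They gave log2 ranges of 0.56, 0.47 and 1.02, so their agreement in order did not extend to size. The 2 probe sets ending in _x_at, which can bind related sequences, were those with the smaller ranges. Among all genes above background 36.6% were highest in replicate 8.

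Other proton pump genes were also above background, 13 of 15 measured (47.3% of all named genes), and their median brightness exceeded that of 90.5% of named genes. Atp6v1g1 (28657 ± 4963), Atp6v1e1 (17089 ± 2522), Atp6v0d1 (11422 ± 342) and Atp6v1d (10683 ± 666) had the highest means. The exceptions were Atp6v1b1, the pump subunit gene of acid-secreting kidney cells, at 32.4 ± 31.4, and Atp6v0a1, above background on 1 array (587 ± 156). The pump genes had mixed array orders: 5 of 15 had their maximum in replicate 8, the others in replicate 9 (6 genes) or replicate 3 (4 genes). Of the 13 above background, 4 (Atp6v1a, Atp6v1b2, Atp6v1d and Atp6v1h) were highest in replicate 8 and lowest in replicate 9, against 21.4% of all genes above background.

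Agt encodes angiotensinogen, the precursor of all angiotensins, which in the body comes mainly from the liver. Its single probe set gave 828, 272 and 579 in replicates 3, 8 and 9, a mean of 560 ± 279. Replicate 3 was above background, and replicates 8 and 9 were below theirs. Because the lower signals were below background, their ratio to replicate 3 gives no exact fold, and the order of replicates 8 and 9 is not secure. The log2 range of the signals, 1.60, exceeded that of 69.4% of the genes not above background, whose median range was 1.09. After taking off each array's median deviation over genes above background, its log2 deviations from the 3-array mean were 0.70, -0.93 and 0.23 in replicates 3, 8 and 9. The order of the arrays for Agt was the same after quantile normalization, with deviations of 0.70, -0.75 and 0.054. Settings of pseudocount and probe choice could not have changed it, since Agt has a single probe set.

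Liver transcripts were also highest in replicate 3 and lowest in replicate 8, an order that for Agt was above background in replicate 3 alone. All 10 measured genes of a hepatocyte list were above background (47.3% of all named genes). All 10 were highest in replicate 3 and lowest in replicate 8, as were 13.7% of genes above background and 19.6% of all named genes. Their summed signals were 245162, 124776 and 175340 in replicates 3, 8 and 9, and their median log2 deviations were 0.71, -0.63 and 0.0078. The genes with the highest means varied least: the alpha-fetoprotein gene Afp had signals of 54027, 34837 and 48948, 1.55-fold apart, and the albumin gene Alb 51919, 33690 and 44594, 1.54-fold apart. Apob, an apolipoprotein gene singled out after its values were seen, varied 5.18-fold (4444, 858 and 1437). No marker of the list was near 0. When all probe sets of a gene were averaged, 7 of the 10 had this order. The part of liver RNA in the Agt signal was not tested.

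Genes of the nephron, another site of Agt expression, were mostly dim. Of them 2 of 9 measured were above background (47.3% of all named genes), and 7 were below it on every array (42.3% of all named genes). Among the latter were Slc34a1, the phosphate transporter of the proximal tubule (78.7 ± 22.0), and the endocytic receptor genes Lrp2 (210 ± 73) and Cubn (213 ± 18). The summed signals of the list were 10634, 5824 and 9302 in replicates 3, 8 and 9, mostly from Hnf4a (7540, 3236 and 6701), a factor also present in liver. By gene, 4 of 9 were highest in replicate 3 and lowest in replicate 8, against 19.6% of all named genes. Of these 4 only Hnf4a was above background. The part of nephron RNA in the Agt signal was not tested. Wt1 (1842 ± 254) was the other gene above background.

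Ace encodes angiotensin converting enzyme, found on endothelium and on the brush border of the proximal tubule. Its brighter probe set had signals of 291, 218 and 316 in replicates 3, 8 and 9 (mean 275 ± 51), below background on each array. The other gave 61.1, 16.6 and 52.6 (mean 43.4 ± 23.6). At such signals the arrays have no order. Of endothelial genes 6 of 10 were above background (47.3% of all named genes), including Tek (2929 ± 1308), Cdh5 (2275 ± 700), Sox18 (2180 ± 609) and Cldn5 (1967 ± 213), whereas Pecam1 (236 ± 80), Flt1 (252 ± 46) and Tie1 (189 ± 86) were below it on every array. The summed endothelial signals were 16446, 15297 and 11877, lowest in replicate 9. A transcript that stays below background on this array may still be present. Labelled RNA thinned out towards the 5′ end of transcripts on every array, with 3′ over 5′ signal ratios of 15.1 to 18.9 for the Gapdh control and up to 7.45 for the Actb control, and the positions of the Ace probes were not used here.

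Agtrap encodes a protein that binds the type 1 receptor and promotes its internalisation. Its brighter probe set had signals of 764, 419 and 773 in replicates 3, 8 and 9 (mean 652 ± 202), above background in replicate 3 and just under it in replicate 9. The other probe set was dim, at 51.6, 48.3 and 79.9. The call for Agtrap depended on the reference list. Its brightest gene, the glucose transporter gene Slc2a2, is also known from liver and had signals of 4363, 1753 and 1577. Without Slc2a2, a choice made after seeing the data, background fell to 411, 409 and 623, Agtrap was above it on all arrays, and 4 of 7 members were called against 51.3% of named genes.

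Most measured enzymes that make or break down angiotensins, Ace aside, were above background, and renin was not analysed here. Of 21 further genes of the pathway, 17 were measured and 11 were above background (47.3% of all named genes), and the median brightness of the measured genes exceeded that of 61.2% of named genes. When background was raised to the 99th percentile of the reference genes, 7 of 17 were above it, against 29.8% of named genes.

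**Figure D2:**
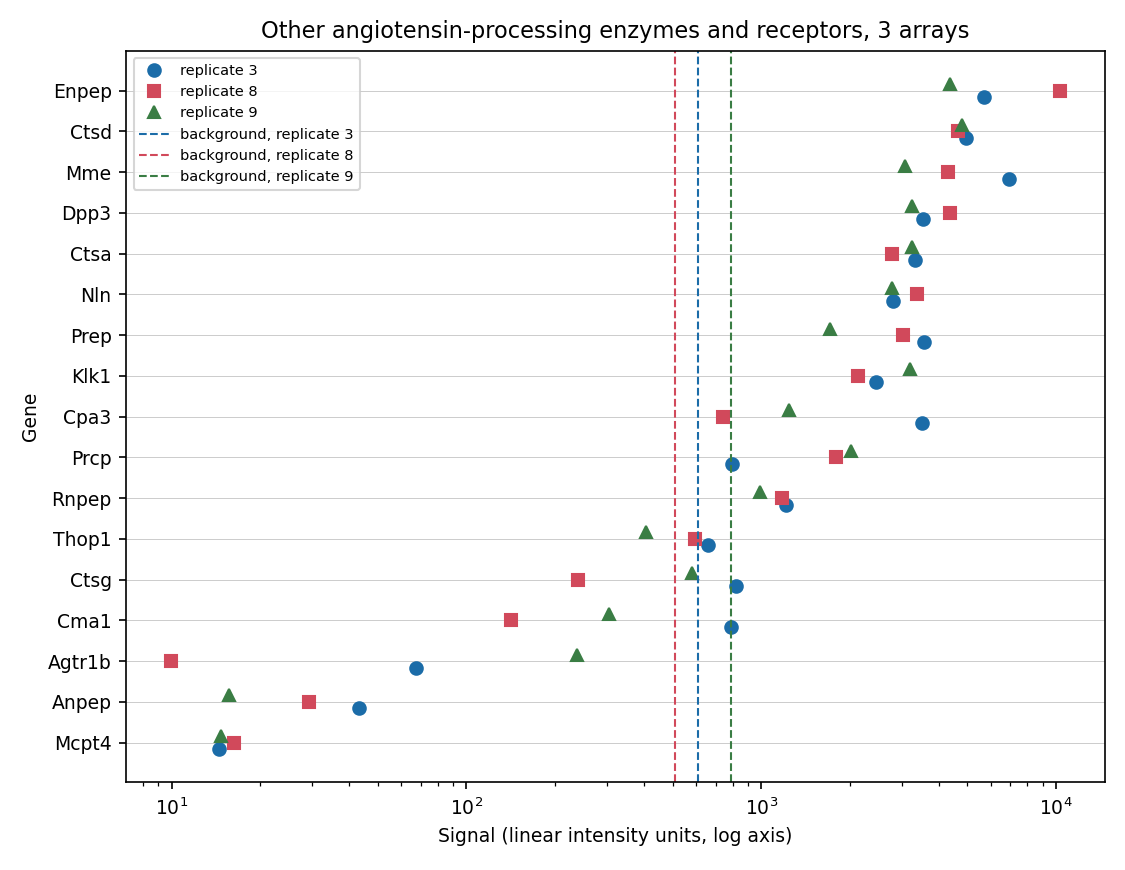
Signal of 17 further enzymes and receptors of the angiotensin pathway on the 3 arrays (linear intensity units on a log axis), 1 row per gene ordered by mean signal, with dashed lines at the background of each array. The genes from Enpep to Rnpep lie to the right of the lines on every array, and Agtr1b, Anpep and Mcpt4 lie to the left of them.

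The brightest of these was Enpep, the gene of aminopeptidase A, which turns angiotensin II into angiotensin III. Its signals were 5702, 10339 and 4372 in replicates 3, 8 and 9, a 2.36-fold spread, with the array order of Atp6ap2. Mme, the gene of neprilysin, which forms angiotensin 1-7, had signals of 6942, 4303 and 3081, highest in replicate 3. Ctsd, the gene of cathepsin D, an aspartic protease related to renin, varied little, with signals of 4941, 4668 and 4797. Dpp3, the gene of a dipeptidyl peptidase that degrades angiotensin II, had a mean of 3720 ± 585. Nln (2982 ± 342), Prep (2766 ± 947) and Prcp (1534 ± 651), which encode peptidases able to form or trim angiotensin 1-7, and Ctsa (3111 ± 298) were above background too. Prcp was 2.54-fold higher in replicate 9 than in replicate 3. Klk1, a tissue kallikrein gene, had a mean of 2590 ± 546 from a probe set ending in _x_at, and without such probe sets it was not above background. Anpep, the gene of aminopeptidase N (29.4 ± 13.9), and the mast cell protease gene Mcpt4 (15.1 ± 1.0) were below background on every array.

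Of the mast cell and granulocyte proteases that can form or process angiotensins without renin or Ace, Cpa3, Cma1 and Ctsg differed between arrays, whereas Mcpt4 was dim on all of them. Cpa3, mast cell carboxypeptidase, had signals of 3498, 741 and 1244 in replicates 3, 8 and 9, a 4.72-fold spread. Cma1, the chymase gene, had 789, 141 and 304, and Ctsg, the cathepsin G gene, 819, 239 and 581. Cpa3 was above background on all arrays, and Cma1 and Ctsg in replicate 3 alone, so that their lower signals give no exact fold. All 3 were highest in replicate 3 and lowest in replicate 8, like Agt and the hepatocyte list, and were singled out after their values were seen. For Agt, Cma1 and Ctsg the order of replicates 8 and 9 lay below background and is not secure. A list of 7 mast cell and myeloid markers holds Cpa3, Cma1 and Mcpt4 as well. Of these 7 markers, 5 were above background (47.3% of all named genes) and 5 had this order (19.6% of all named genes). The exceptions in order were Mcpt4 and the macrophage receptor gene Csf1r (8111, 5183 and 17559). Whether liver or blood cells gave the protease signals was not tested.

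**Figure D3:**
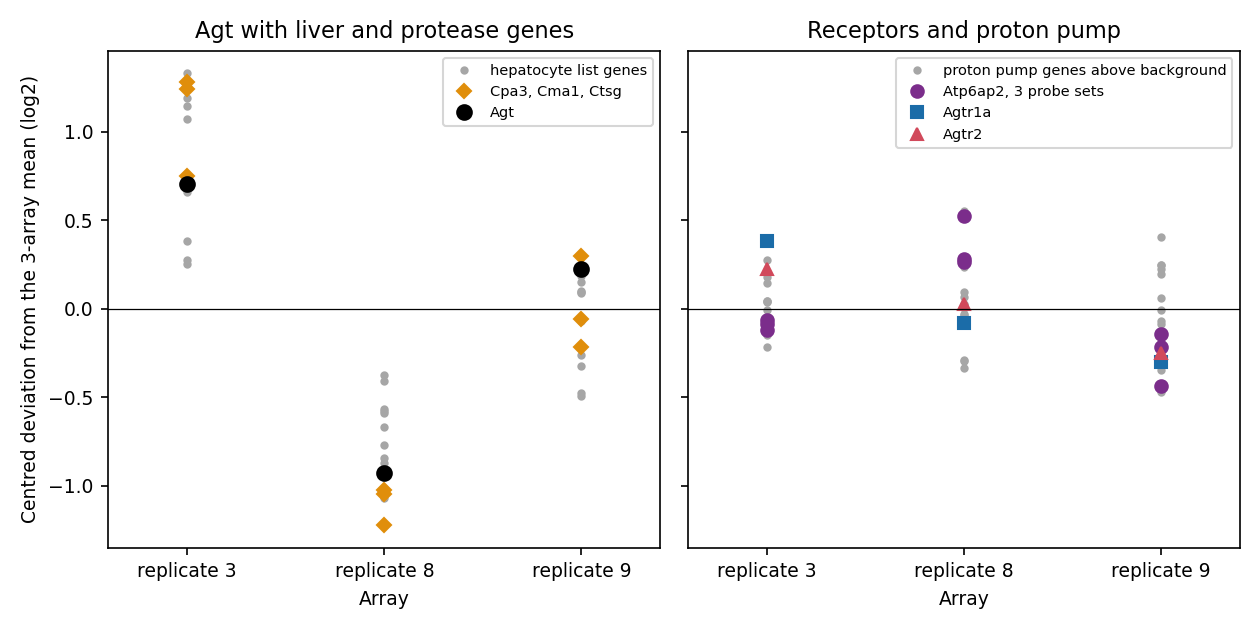
Log2 deviation of each gene from its 3-array mean after taking off the median deviation of the array, by replicate; 1 marker per gene, or per probe set for Atp6ap2. On the left Agt (0.70, -0.93 and 0.23) lies among the hepatocyte list genes and the protease genes Cpa3, Cma1 and Ctsg, all high in replicate 3 and low in replicate 8; on the right the Atp6ap2 probe sets are high in replicate 8 and Agtr1a and Agtr2 in replicate 3.

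Genes that bind or carry the signal of the receptors were above background for 20 of 22 measured (47.3% of all named genes). They included the G protein genes Gnai3 (23920 ± 3908) and Gna13 (16728 ± 2130), the small GTPase gene Rhoa (24048 ± 3316) and Gnai2 (13295 ± 2215). These genes serve many receptors and are not particular to angiotensin. Mtus1, which encodes a protein that binds the type 2 receptor, had signals of 4215, 1666 and 2159, highest in replicate 3. Rgs2, the gene of a regulator that damps type 1 receptor signalling, had 7386, 10384 and 8485. The exceptions were the NADPH oxidase genes Nox4 (495 ± 103) and Cybb (184 ± 101), below background on every array.

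The steroid arm of the system was mostly dim. Of 7 genes from steroid synthesis to the mineralocorticoid receptor, 1 was above background (47.3% of all named genes). This was Hsd11b2, the gene of the enzyme that shields the receptor from glucocorticoids, with signals of 896, 1420 and 2761. It was 3.08-fold higher in replicate 9 than in replicate 3. The aldosterone synthase gene Cyp11b2 (60.1 ± 42.0), Cyp21a1 (227 ± 117) and the mineralocorticoid receptor gene Nr3c2 (411 ± 159) were below background on every array. Star (682, 1472 and 345) was above background on 2 arrays, and Cyp11b1 (213, 757 and 124) and Cyp11a1 (694, 451 and 10.4) on 1 each. These genes were lowest in replicate 9, where their signals were below background and give no exact fold. The 7 measured adrenal and gonad markers, which include Star and Cyp11a1, had summed signals of 3939, 3319 and 1183 and none was above background on all arrays.

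Markers of the cell types in which the members are known to act were read against the 47.3% of all named genes above background. Of the ureteric mesenchyme and fibroblast list 10 of 11 genes were above background, with Foxf1 the exception (710 ± 117), of urothelial genes 9 of 13 and of smooth muscle genes 4 of 10, among them Acta2 (31713 ± 3969). Summed smooth muscle signals were 62155, 64922 and 54187 and summed mesenchymal signals 171757, 192154 and 191895, both highest in replicate 8. Such sums weigh bright genes most. The muscle sums came mostly from Acta2 and Mylk (20497 ± 7494), and Col3a1 (55422 ± 8078) and Col1a2 (37465 ± 8743) had the highest mesenchymal means. By gene, 1 of 11 mesenchymal and 3 of 10 smooth muscle genes (Myh11, Tagln and Lmod1, none of them above background on all arrays) were highest in replicate 3 and lowest in replicate 9. So were 6 of 10 endothelial genes and the summed endothelial signal. Of the 6 endothelial genes above background, 4 had this order (Cdh5, Tek, Cldn5 and Sox18), against 18.4% of all genes above background. Replicates 8 and 9 were nearly level for Cldn5 (1875 and 1815) and Sox18 (1874 and 1786). After taking off each array's median deviation, Cldn5 was lowest in replicate 8. Kdr (1049, 1442 and 2950) had the reverse, lowest in replicate 3 and highest in replicate 9. Esam was highest in replicate 8 and lowest in replicate 9. An order over 3 arrays is too short to link a cell type to the receptor genes. The part of endothelial, mesenchymal or muscle RNA in the receptor signals was not tested. Among markers of renin cells and pericytes 7 of 9 were above background, including Foxd1, a factor gene of the renal stroma from which renin cells arise (11151 ± 1633), and Pdgfrb (6490 ± 2794), whereas Gja5, the connexin gene of renin cells, was at 20.2 ± 12.7. The defining gene Ren1 was not analysed here.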

How the data were processed

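The authors deposited linear signal intensities, 1 per probe set and array. Per the submitters' processing notes these came from GCOS, the array maker's software, with version, algorithm and settings not given in the sources used here. The 2% trimmed mean was 1500 on each array, so the arrays had been scaled to a common mean, and the medians were 234, 198 and 273 in replicates 3, 8 and 9. No quantile normalization was applied to the values used. A scaled level depends on the other transcripts of its array, and amplification from the 3′ end can leave distant probe sets dim.

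Of 45101 probe sets, 34958 had 1 symbol in the platform annotation. They were compared by Entrez ID with the gene table of GRCm38.p6, where 34754 matched and 0 symbols changed. Signals were analysed as log2(signal + 1) with Python 3.11.15, numpy 2.4.6 and pandas 2.3.3. The call rule was tested on simulated data. A gene was above background when it exceeded the 95th percentile of the reference list on all 3 arrays; of 60 listed genes 53 were measured and 3 were themselves above it. Precision is limited by the number of arrays. Across the genes above background Pearson's r between arrays was 0.929 to 0.941 (genes are not independent replicates), so no array repeats another. Named were all members and, per further list, up to 4 genes with the highest means and up to 4 below background on every array; other genes were named after their values were seen. The members and lists were chosen with earlier results of these data known.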

Additional observations from a re-analysis of the deposited data

How the results depend on the processing

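The calls were recomputed under 13 alternatives, 2 of them chosen after seeing the data. Agtr2 and Atp6ap2 were above background in all 13 and Agtr1a in 12, the exception being the 99th percentile of the reference list. Agtrap was above background in 3 (the 90th percentile and both reference lists without Slc2a2), and Agt, Ace and Mas1 in 0. With the 99th percentile 7 of 17 further pathway genes and 5413 of all named genes were above background, against 11 and 8611 as reported. Averaging all probe sets of a gene gave 8 pathway genes, without Prcp, Klk1 and Dpp3, and 6102 named genes. The other alternatives that kept every replicate gave 10 to 12 pathway genes and 7946 to 10106 named genes. Leaving out replicate 3, 8 or 9 gave 3 members each time, 11 to 12 pathway genes and 8678 to 9342 named genes. Quantile normalization moved the highest array of Ace and of Agtrap from replicate 9 to replicate 3 and narrowed the centred log2 range of Ace to 0.20. With _x_at and _s_at probe sets left out, the centred log2 range of Atp6ap2 rose to 0.92. No paired analysis was possible because the samples form 1 group.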
